A study of Mus musculus with 36 samples.

Results

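Ribosome-protected fragments (RPFs) were compared between FMR1 KO and WT mouse brain in the pellet of sucrose gradients after standard nuclease digestion. This comparison used 6 of the 36 libraries of the series, 3 of each genotype, and the genes were described by function and family. WT mice were C57BL/6 in the labels and C57BL/6J in the study's methods, FMR1 KO mice carried the null allele (FMR1 -/y in the labels), and both were used at postnatal day 5. Each preparation pooled 10 whole brains, homogenised with 10 mM MgCl2 and digested with RNase I under the standard, stronger condition. A low nuclease preparation with 2.5 mM MgCl2 and RNA-seq of whole brain homogenate, each with 3 libraries per genotype, were set beside it. No gene other than FMR1 differs between the groups by design, and no agent was given to the animals. The labels and the methods name different vendors for the mice, and whether WT and FMR1 KO animals were littermates is not given in the sources used here, so genotype and mouse line or substrain cannot be told apart. Whole brain at this age holds neurons, glia, vessel and blood cells, and the pellet is a biochemical fraction rather than a cell type.

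FMRP, the product of Fmr1, is an RNA-binding protein that associates with polyribosomes and with mRNAs of long neuronal and synaptic proteins, and its loss causes Fragile X syndrome. In developing neurons, part of the mRNA pool travels in RNA granules, clusters of ribosomes paused on their messages that sediment faster than ordinary polysomes. RPFs from this pellet report which mRNAs the clustered ribosomes sit on, and the comparison asks whether that set of mRNAs differs when FMRP is absent.

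The 6 libraries held 21710393 to 40174168 counts per library, of which the single gene Cdk8 took 43.7% to 63.4%. Without Cdk8, 11922190 to 21274803 counts remained, and all values below are CPM, these remaining counts scaled to a common normalised library size. FMR1 KO replicate 2 stood apart, with a coordinate of 80.7 on the first principal component against -22.8 to -5.58 for the other 5 libraries. WT replicate 3 differed from the other WT libraries in whole families, which is given beside those families. A normalisation factor of 0.779 was given to FMR1 KO replicate 2, the lowest, and 1.14 to FMR1 KO replicate 3, the highest. After filtering, 13163 protein-coding genes entered the quasi-likelihood test of edgeR, and their median log2 fold change (FMR1 KO over WT) was -0.0036. The 3 libraries of a genotype came from separate preparations by the methods, each marked by its own linker, and were then pooled for gel extraction, reverse transcription and PCR. Genotype and library pool therefore cannot be told apart, and the p-values measure the spread between preparations within a pool, with none between pools.

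Fmr1 itself (X chromosome, 68678541 to 68717963 in GRCm38) had an abundance of 68.3, 60.6 and 69.4 CPM in the WT libraries and 4.56, 6.31 and 4.22 CPM in the FMR1 KO libraries. All 6 libraries therefore matched their genotype label. It fell by 3.72 on the log2 scale (SE 0.18, adjusted p = 0.00598, edgeR's quasi-likelihood test and the Benjamini-Hochberg method). Wdfy1 (chromosome 1, 79702262 to 79776143), which encodes an endosomal WD-repeat and FYVE domain protein, had 26.8, 28.3 and 24.9 CPM in WT and 1.92, 3.15 and 2.04 CPM in FMR1 KO, and fell by 3.51 (SE 0.21, adjusted p = 0.0121). These were the 2 genes past an adjusted p of 0.05, or 0.0152% of the genes tested. Without WT replicate 2 neither passed, and without FMR1 KO replicate 3 Wdfy1 did not, while their log2 fold changes stayed between -3.90 and -3.61 for Fmr1 and between -3.74 and -3.38 for Wdfy1. Among 72 tested genes within 10 Mb of Fmr1, 4 were higher and 4 lower at an unadjusted p of 0.05, with a median log2 fold change of 0.02. Within 10 Mb of Wdfy1 it was 3 and 3 of 108, with a median of -0.01.

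The relatives and partners of FMRP stayed within small differences. Fxr1, a paralogue with the same RNA-binding domains, had 70.6, 69.0 and 71.1 CPM in WT and 77.8, 73.0 and 72.3 CPM in FMR1 KO, a log2 fold change of 0.08 (SE 0.08). Fxr2, the other paralogue, had 63.5 to 74.5 CPM in WT and 61.8 to 70.5 CPM in FMR1 KO (-0.01, SE 0.11). Cyfip1, which links FMRP to the cap-binding protein and to the WAVE complex, was at -0.10 (SE 0.10) and Cyfip2 at 0.15 (SE 0.29). Caprin1, a granule protein that binds FMRP, was at 0.04 (SE 0.14). The lowest FMR1 KO library of Fxr1 lay just above its highest WT library, the groups overlapped for the other 4, and the adjusted p was 0.958 or higher for each of the 5 (edgeR).

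At an unadjusted p of 0.05, 337 genes (2.56%) were higher and 367 (2.79%) lower in FMR1 KO. Without regard to p, the 3 FMR1 KO libraries lay all above the 3 WT libraries for 643 genes (4.88%) and all below them for 836 (6.35%). These shares are the background against which members of each family are counted below. With 1 library left out, 13308 to 13418 genes were tested at the same unadjusted p. Higher and lower genes numbered 259 and 229 without WT replicate 1, 219 and 347 without replicate 2 and 560 and 394 without replicate 3. They numbered 401 and 135 without FMR1 KO replicate 1, 295 and 319 without replicate 2 and 579 and 418 without replicate 3. On simulated counts with the means and library sizes of these samples, the test found 67.3% of genes changed 4-fold and 7% of genes changed 2-fold, so a difference of 2-fold or less in a single gene was mostly not detectable.

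Of 439 genes with a mean of at least 5 CPM, no overlap and an unadjusted p under 0.05, 146 were higher and 293 lower, and the 12 largest differences of each direction were examined library by library. On the low side, Nebl, a nebulin-family protein that binds actin filaments, had 64.0, 57.6 and 109.7 CPM in WT and 8.89, 12.9 and 9.35 CPM in FMR1 KO. Its log2 fold change was -2.89 (SE 0.30, adjusted p = 0.142), it was -0.89 in the low nuclease pellet, and its RNA was level at -0.02. Exph5, a Rab27 effector in vesicle trafficking, had 6.416 to 13.96 CPM in WT and 1.26 to 1.92 CPM in FMR1 KO (-2.76, SE 0.35, adjusted p = 0.303), with 0.18 in the low nuclease pellet. In both genes the FMR1 KO libraries lay far below the lowest WT library.

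Several of the other large differences sat in genes with little RNA. Sftpc, which encodes the lung surfactant protein C, had 753, 856 and 1599 CPM in the WT pellet and 132, 58.0 and 189 CPM in FMR1 KO (-3.08, SE 0.52, adjusted p = 0.592), while whole-brain RNA held 0.0583 to 0.237 CPM of it in every library. Atoh8, a basic helix-loop-helix transcription factor, had 1945, 151 and 238 CPM in WT and 3.36, 13.3 and 11.4 CPM in FMR1 KO (-6.38, SE 1.30, adjusted p = 0.862), with 1.75 to 3.08 CPM in RNA. Whether reads at these 2 genes come from their own mRNAs was not tested. For Plek, 2010300C02Rik, Dzip1 and Coq2 a single WT library carried the difference. Plek, a platelet and microglial protein kinase C substrate, had 1164 CPM in WT replicate 1 and 24.9 to 35.0 CPM in the other 5 libraries. Each of these 4 genes was under 2-fold when that library was left out. Pck1, the gluconeogenic enzyme, had 1.37, 5.24 and 27.7 CPM in WT and 0.901, 0 and 0 CPM in FMR1 KO. Of the 12 largest negative differences, 7 kept an unadjusted p under 0.05 whichever library was left out.

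The largest positive differences rested on single libraries more often. Dcp1a, a subunit of the mRNA decapping complex, was the clearest, with 9.99, 9.81 and 8.65 CPM in WT and 147.5, 396.7 and 197 CPM in FMR1 KO. Its log2 fold change was 4.70 (SE 0.42, adjusted p = 0.0783), while it was -1.09 in the low nuclease pellet and 0.15 in RNA. Arsg, a lysosomal sulfatase, had 0.901 to 1.11 CPM in WT and 9.61, 52.0 and 1.34 CPM in FMR1 KO (4.36, SE 1.29, adjusted p = 0.862). Dcp1a and Arsg were the 2 of these 12 genes that kept an unadjusted p under 0.05 without each library in turn. In contrast, Ror1, a Wnt5a receptor, had 619 CPM in FMR1 KO replicate 1 and 0.451 to 1.47 CPM elsewhere. Xpo4, a nuclear transport receptor, had 2058 CPM in FMR1 KO replicate 2 and 16.2 to 19.2 CPM elsewhere, and Anks1 had 2216 CPM in FMR1 KO replicate 3 and 35.2 to 45.1 CPM elsewhere. These spikes lay in a different FMR1 KO library for each of the 3 genes. Without the library concerned, the log2 fold change was 0.99 for Ror1, 0.12 for Xpo4 and 0.16 for Anks1. Over the 12 genes, 7 were under 2-fold without one of the libraries, and over all 439 genes 59 higher and 73 lower ones kept an unadjusted p under 0.05 in all 6 such fits.

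**Figure D1:**
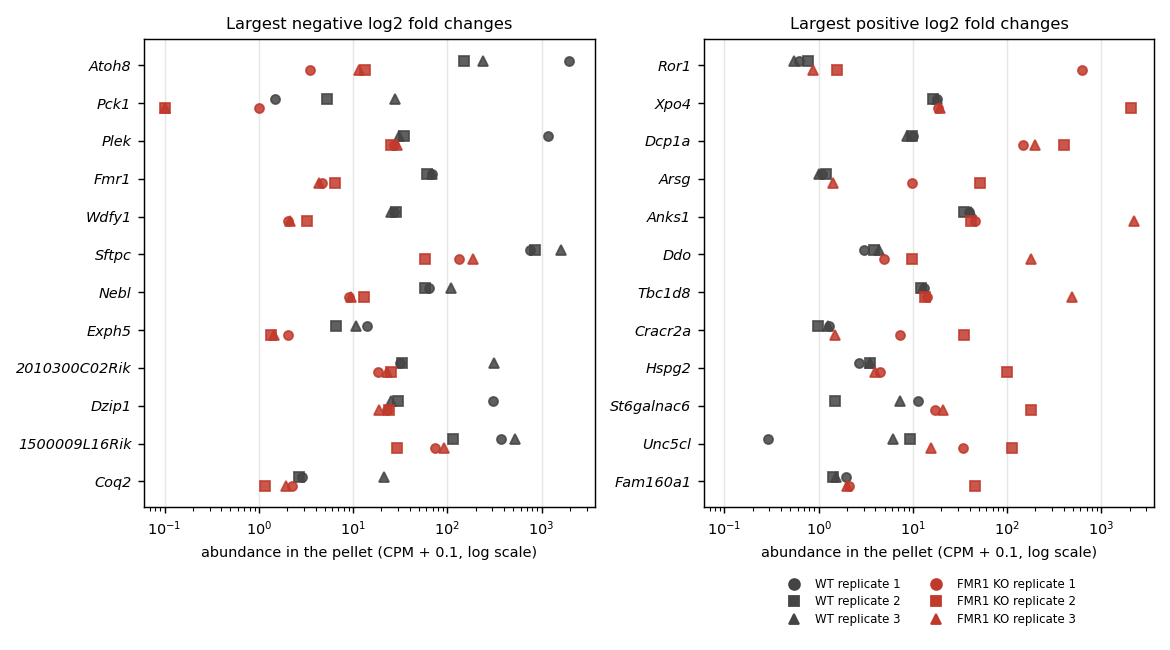
Abundance of the 12 genes with the largest negative (left) and the 12 with the largest positive (right) log2 fold change in the pellet, on a log axis in CPM with a small offset for zeros, with 1 point per library (circles, squares and triangles are replicates 1, 2 and 3, grey WT and red FMR1 KO). Fmr1, Wdfy1, Nebl and Dcp1a separate in all libraries, while Plek, Xpo4 and Anks1 each have 1 library far from the other 5.

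The functional families were 68 lists holding 2381 of the tested genes, of which 66 had tested members. Of the 64 lists with at least 5 tested members, 42 had a median log2 fold change within 0.1 of 0, against -0.0036 for all genes. In 7 lists the median level of every FMR1 KO library lay below that of every WT library, and in 0 lists above. Those 7 were the calcium and calmodulin kinases, the postsynaptic scaffolds, the glycolytic enzymes, actins and actin turnover, the synaptic vesicle cycle, the microtubule-associated proteins and the mTOR pathway core. For the microtubule-associated proteins the margin was near 0, with -0.023 in FMR1 KO replicate 3 against -0.022 in WT replicate 3. Their median log2 fold change turned to 0.014 without FMR1 KO replicate 2.

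**Figure D2:**
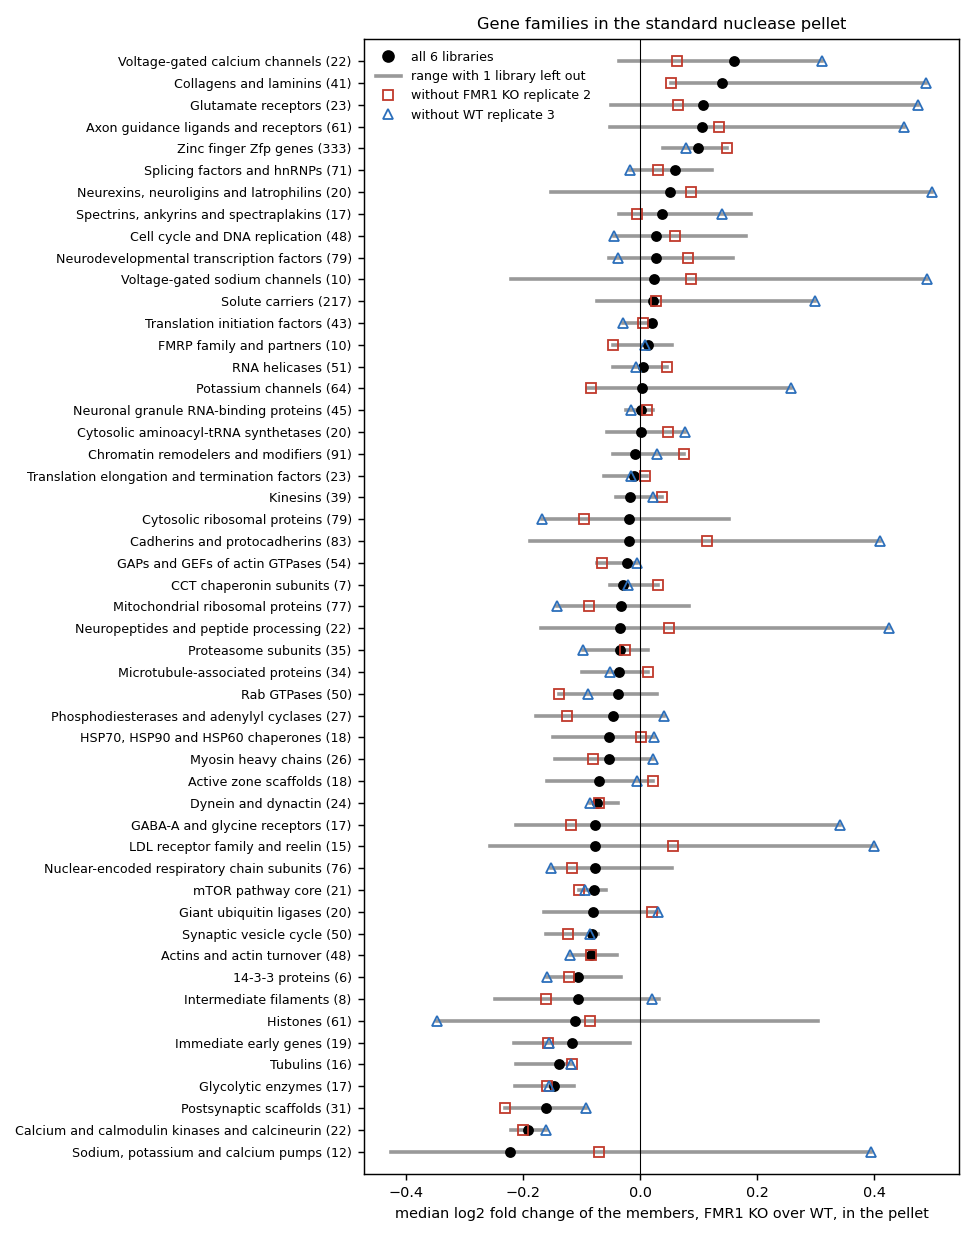
Median log2 fold change of the members of each family with at least 5 tested genes (number in brackets) in the pellet, with all 6 libraries (black), as the range when 1 library is left out (grey), without FMR1 KO replicate 2 (red squares) and without WT replicate 3 (blue triangles). Calcium and calmodulin kinases and postsynaptic scaffolds stay below 0 throughout, while families of membrane and secreted proteins move to the right without WT replicate 3.

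Among the lists with at least 5 tested members, calcium and calmodulin signalling enzymes had the highest share of lower members. CaMKII, the conventional protein kinases C and the phosphatase calcineurin translate synaptic calcium entry into phosphorylation changes in spines, and the list also holds Prkce, a protein kinase C that calcium does not activate. Of the 22 members tested, 8 (36.4%) were lower and 0 higher at an unadjusted p of 0.05, against 2.79% and 2.56% of all genes, and 10 had all FMR1 KO libraries below all WT libraries, against 6.35% of all genes. The members' median log2 fold change was -0.19, and 19 of 22 were negative. No member passed the adjusted test, with a smallest adjusted p of 0.862, so none is called changed.

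Camk2a, the forebrain subunit of CaMKII, had 307, 299 and 402 CPM in WT and 219.9, 252 and 239.8 CPM in FMR1 KO (-0.50, SE 0.15). The 3 FMR1 KO libraries were below the lowest WT library, and WT replicate 3 was the highest. Camk2b, the actin-binding subunit, was at -0.38 (SE 0.16) with 638 to 825 CPM in WT and 513 to 620 CPM in FMR1 KO, and Camk2d was at -0.22 (SE 0.10). Pnck, a CaMKI family kinase, was at -0.38 (SE 0.12), and the pseudokinase Camkv, which binds calmodulin, was at -0.36 (SE 0.12). Camk4, which acts on CREB in the nucleus, was at -0.36 (SE 0.13). Prkcb and Prkce were at -0.33 (SE 0.11) and -0.31 (SE 0.11). The catalytic calcineurin subunit Ppp3ca had 385 to 492 CPM in WT and 318 to 354 CPM in FMR1 KO (-0.37, SE 0.14). The calmodulin genes Calm2 and Calm3 were nearer to 0, at 0.09 (SE 0.21) and -0.05 (SE 0.18). Camk2g and Camk1d, at 0.96 (SE 0.86) and 1.09 (SE 0.56), were the members with the largest positive values, and in both FMR1 KO replicate 2 was far above the rest, with 3307 and 3983 CPM.

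The count of 8 lower members depended on single libraries. It was 1 without FMR1 KO replicate 1, 2 without WT replicate 1, 4 without WT replicate 3, 6 without FMR1 KO replicate 2, 7 without WT replicate 2 and 9 without FMR1 KO replicate 3. Over all genes the lower count also fell, to 135 of 13308 without FMR1 KO replicate 1 and 229 of 13403 without WT replicate 1. The members' median ran from -0.22 to -0.16 over the 6 fits that each left out 1 library. In the low nuclease pellet, 1 of the 22 (Pnck) was lower and 0 higher, against 1.97% and 2.36% of all genes there, and the members' median was 0.11. Pnck had 717, 490.5 and 77.8 CPM in WT and 76.2 to 115.9 CPM in FMR1 KO in that preparation, so that 2 WT libraries carried its difference. In whole-brain RNA the members' median was 0.06, with 0 of 22 lower.

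Postsynaptic scaffolds hold receptors, kinases and actin regulators together in the spine. Of 31 tested, 8 (25.8%) were lower and 0 higher, and 10 had FMR1 KO libraries all below WT, with a median of -0.16 and 26 of 31 negative. Lrrc7, also called densin, which tethers CaMKII, had 65.7, 60.0 and 85.9 CPM in WT and 48.0, 48.8 and 51.1 CPM in FMR1 KO (-0.52, SE 0.15). Erbin, a LAP-family relative of densin, had 33.9, 38.6 and 40.2 CPM in WT and 31.5, 27.2 and 28.1 CPM in FMR1 KO (-0.38, SE 0.10). Both kept an unadjusted p under 0.05 without each library in turn, and no FMR1 KO library reached a WT library.

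The remaining scaffolds of this group were of several kinds. Cnksr2, a Ras-pathway scaffold, was at -0.49 (SE 0.16) and Iqsec2, an Arf exchange factor of the postsynaptic density, at -0.48 (SE 0.16). Frmpd4 and Homer1, which connect scaffolds to metabotropic glutamate receptors, were at -0.34 (SE 0.13) and -0.23 (SE 0.07). Shank3, which links the receptor complexes to Homer and actin, had 37.9, 41.0 and 44.7 CPM in WT and 29.5, 33.4 and 36.7 CPM in FMR1 KO (-0.31, SE 0.11), while in the low nuclease pellet it was at 0.49 (SE 0.17). Anks1b was at -0.24 (SE 0.09). Among the other members, Dlg4 (PSD-95) was at -0.03 (SE 0.11), Shank2 at -0.06 (SE 0.09) and Shank1 at -0.13 (SE 0.12). Dlg1 was at -0.31 (SE 0.20), with overlapping groups. Iqsec1 had no common direction, with 1588 CPM in WT replicate 1, 3686 CPM in FMR1 KO replicate 2 and 99.7 to 135.5 CPM in the others. Sipa1l1, a spine GTPase-activating protein, was at 1.81 (SE 0.99), with 523 CPM in FMR1 KO replicate 2. Of the 31, 3 were lower without FMR1 KO replicate 1, 5 without WT replicate 1, WT replicate 3 or FMR1 KO replicate 2, 6 without FMR1 KO replicate 3 and 8 without WT replicate 2, and the median over all such fits ran from -0.23 to -0.09. In the low nuclease pellet the scaffolds' median was 0.04 and in RNA it was -0.03.

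**Figure D3:**
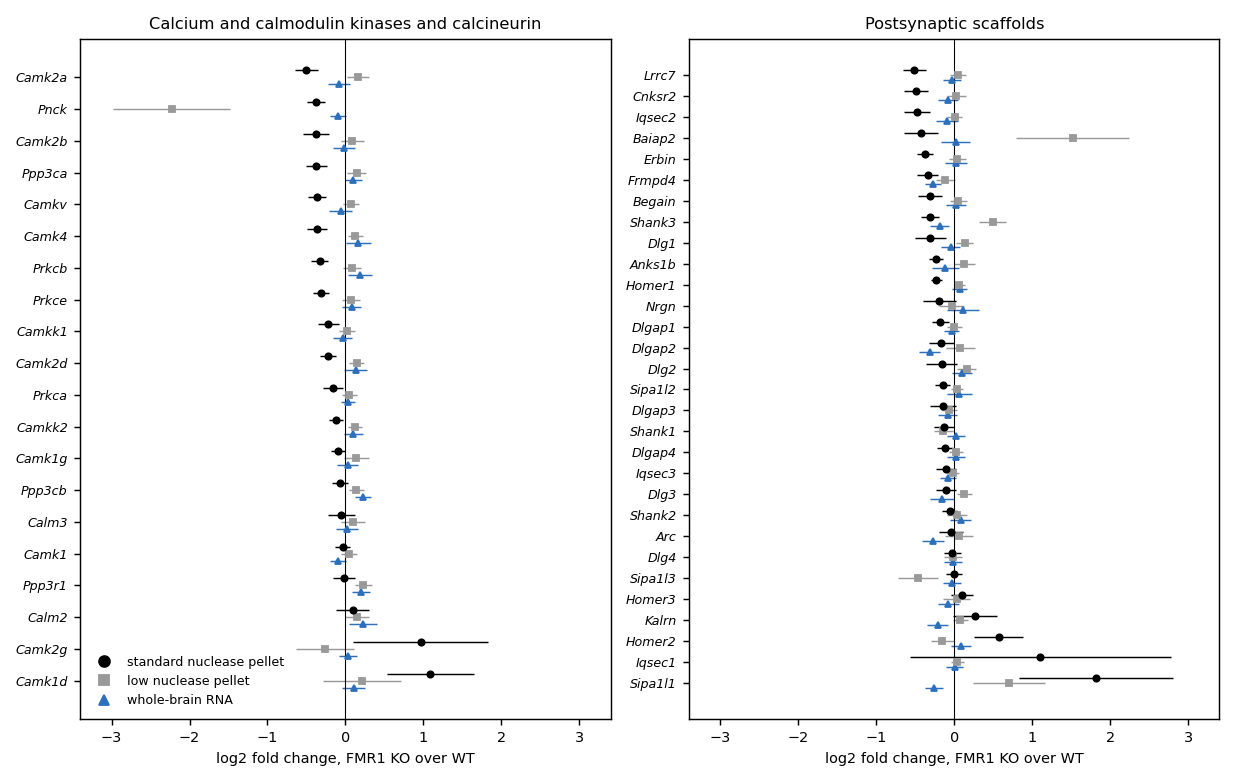
Log2 fold change (FMR1 KO over WT) with its standard error for 20 of the 22 calcium and calmodulin signalling enzymes (left) and 30 of the 31 postsynaptic scaffolds (right), in the standard nuclease pellet (black), the low nuclease pellet (grey) and whole-brain RNA (blue), with 3 libraries per genotype in each. Over all members, drawn or not, 19 of 22 enzymes and 26 of 31 scaffolds are below 0 in the standard nuclease pellet, with medians of -0.19 and -0.16, against 0.11 and 0.04 in the low nuclease pellet.

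Actin regulators were next by count. Of 48 actins and actin turnover proteins, 5 were lower and 1 higher, and 11 had FMR1 KO libraries all below WT against 3 all above. The median was -0.08. The count of lower members was 0 without FMR1 KO replicate 1, 1 without WT replicate 1, 2 without WT replicate 3 and 3 without WT replicate 2. In the same order, the median in these fits was -0.08, -0.08, -0.12 and -0.04. Wdr1, the cofilin cofactor in filament disassembly, had 319.5, 304 and 328 CPM in WT and 249, 249 and 264 CPM in FMR1 KO (-0.32, SE 0.10). Wasf1, the WAVE subunit that activates Arp2/3, was at -0.34 (SE 0.11), the Arp2/3 subunit Arpc2 at -0.28 (SE 0.09), the severing protein gelsolin (Gsn) at -0.35 (SE 0.11) and Coro1a at -0.27 (SE 0.11). Enah, which elongates filaments at the growth cone, was the higher one, with 130.1, 96.8 and 87.5 CPM in WT and 169.6, 223 and 133 CPM in FMR1 KO (0.74, SE 0.24). Actb was at -0.12 (SE 0.24). Among the GTPase-activating proteins (GAPs) and exchange factors that switch the small GTPases controlling actin, 6 of 54 were lower and 1 higher. Here 2 were lower without WT replicate 3, 3 without FMR1 KO replicate 1 or 2 and 4 without WT replicate 1. Arhgap31, a GAP for Rac1 and Cdc42, had 21.01, 21.39 and 23.97 CPM in WT and 15.6, 15.4 and 14.6 CPM in FMR1 KO (-0.55, SE 0.10, adjusted p = 0.697), and Arhgap20 was at -0.34 (SE 0.08). Arhgap9, of blood cells, was the higher one (0.78, SE 0.23), with 15.5 to 25.2 CPM in WT and 27.6 to 40.6 CPM in FMR1 KO.

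The microtubule cytoskeleton had few members past the test. Of 16 tubulins, with a median of -0.14, Tuba4a was at -0.43 (SE 0.14), with 269 to 348 CPM in WT and 204 to 242 CPM in FMR1 KO, and Tubg1, the nucleating gamma-tubulin, at -0.21 (SE 0.08). These were the 2 lower members, with 0 left without WT replicate 3 or without FMR1 KO replicate 1, and the neuronal Tubb3 (-0.04, SE 0.20) and Tubb5 (0.01, SE 0.25) were level. The tubulin median was -0.12 in both of those fits, and Tuba4a was at -0.32 and -0.36. None of the 34 microtubule-associated proteins or the 39 kinesins passed the unadjusted p in either direction, and Dpysl2, a collapsin response mediator, was at 0.02 (SE 0.22). Of 24 dynein and dynactin subunits 1 was lower, the light chain Dynlt1b, which is taken up again below. Of 26 myosin heavy chains 1 was lower, the embryonic muscle myosin Myh3, at 4.65 to 7.21 CPM in WT and 3.05 to 3.18 CPM in FMR1 KO (-0.86, SE 0.22). Spectrins, ankyrins and spectraplakins had 0 of 17 in either direction.

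On the presynaptic side, 3 of 50 synaptic vesicle cycle genes were lower and 1 higher, and 9 had all FMR1 KO libraries below WT against 0 all above, with a median of -0.08. Without WT replicate 3 the balance turned to 8 higher and 1 lower, and 1 was lower without WT replicate 1, WT replicate 2 or FMR1 KO replicate 1. In the fit without WT replicate 3, 560 of all genes were higher and 394 lower, and the list's median was -0.085. Stxbp5 (tomosyn), an inhibitor of SNARE assembly, had 90.7, 84.7 and 105.9 CPM in WT and 72.3, 67.6 and 76.2 CPM in FMR1 KO (-0.38, SE 0.12). Snap91, a clathrin adaptor of vesicle retrieval, was at -0.40 (SE 0.15) and the endophilin Sh3gl1 at -0.28 (SE 0.11). Itsn1, an endocytic scaffold, was at 0.82 (SE 0.33), with 265.5 to 318 CPM in WT and 297, 761 and 488 CPM in FMR1 KO. The clathrin heavy chain Cltc was at -0.09 (SE 0.21). Active zone scaffolds had 1 of 18 lower (Rims4, -0.34, SE 0.12) and 1 higher (Rims2, 0.76, SE 0.28).

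Of 19 immediate early genes, the activity-induced transcription factors and effectors, 4 were lower and 0 higher, with a median of -0.12. The lower count was 1 without WT replicate 1 or FMR1 KO replicate 1 and 2 without FMR1 KO replicate 2, and the median was -0.02 without WT replicate 2, -0.06 without FMR1 KO replicate 1 and -0.21 without FMR1 KO replicate 3. Npas4 had 2.08, 1.99 and 1.89 CPM in WT and 1.14, 1.37 and 1.27 CPM in FMR1 KO (-0.67, SE 0.20). Egr1 had 27.9, 26.8 and 30.7 CPM in WT and 20.8, 23.8 and 23.7 CPM in FMR1 KO (-0.33, SE 0.10), and Egr3 was at -0.38 (SE 0.13). The fourth was Homer1, which also counts among the scaffolds. Jun was at 0.00 (SE 0.11), and the members' median in the low nuclease pellet was 0.06.

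Energy metabolism and growth signalling gave small shifts. Of 17 glycolytic enzymes 16 had a negative log2 fold change and 5 had no overlap between the groups, with 2 lower and a median of -0.15. Without WT replicate 2, WT replicate 3 or FMR1 KO replicate 1, 0 were lower. The median in these fits was -0.18, -0.16 and -0.11, and it ran from -0.21 to -0.11 over all fits with a library left out. Gpi1 had 272.5, 282 and 300.4 CPM in WT and 197, 212 and 249 CPM in FMR1 KO (-0.38, SE 0.13), Pfkl was at -0.24 (SE 0.10) and Aldoa at -0.24 (SE 0.12). None of the 76 nuclear-encoded respiratory chain subunits passed the unadjusted p, and their median of -0.08 turned to 0.06 without WT replicate 2 and was -0.15, with 6 lower, without WT replicate 3. The 12 mitochondrial genome genes were not tested, since none exceeded 13 counts in a library. In the mTOR pathway core, 2 of 21 were lower. One was Pik3ca, the catalytic PI3K subunit, at -0.27 (SE 0.09). Mtor was at -0.10 (SE 0.17).

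Second-messenger enzymes outside the calcium group held 1 large difference past the unadjusted p, while their highest value of 1.89 did not pass. Pde3b, a cyclic nucleotide phosphodiesterase best known from fat and liver, had 3.46, 4.13 and 4.24 CPM in WT and 0.54, 0.946 and 0.774 CPM in FMR1 KO (-2.41, SE 0.27, adjusted p = 0.146). In the low nuclease pellet it was at 1.68 and in RNA at -0.01. Pde8b was at -0.45 (SE 0.16), and these were the 2 lower of 27 phosphodiesterases and adenylyl cyclases.

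Genes of the translation machinery did not separate the genotypes. Initiation factors had 0 of 43 past the unadjusted p in either direction (median 0.02), elongation and termination factors 0 of 23 (median -0.01) and mitochondrial ribosomal proteins 0 of 77 (median -0.03). Eef2, the translocase, was at -0.15 (SE 0.17) and Eef1a1 at -0.15 (SE 0.16). Cytosolic ribosomal proteins had 1 of 79 higher, Rpl3l, the muscle form of Rpl3, with 7.15 to 18.0 CPM in WT and 17.7 to 58.1 CPM in FMR1 KO (1.79, SE 0.52), so that its groups overlapped. The list moved in both directions with a library left out, with 5 lower without WT replicate 3, 4 higher without WT replicate 2 and 6 higher without FMR1 KO replicate 3, and its median ran from -0.17 to 0.15. Aminoacyl-tRNA synthetases had 1 of 20 higher (Mars1, 0.92, SE 0.30).

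At the unadjusted p, RNA-binding proteins were also near the background. Of 45 proteins of neuronal granules, 2 were higher and 1 lower. Without regard to p, 7 (15.6%) had all FMR1 KO libraries above WT, against 4.88% of all genes. Tardbp (TDP-43) had 166.8, 149.9 and 140.7 CPM in WT and 197, 183 and 176 CPM in FMR1 KO (0.28, SE 0.11). Igf2bp2, which binds growth-related mRNAs, was at 0.62 (SE 0.24), and Larp4b was at -0.40 (SE 0.13). Splicing factors and hnRNPs had 3 of 71 higher and 0 lower, which turned to 0 higher and 3 lower without WT replicate 3 and was 5 higher without FMR1 KO replicate 2 or 3. One of these, Hnrnpll, rested on FMR1 KO replicate 1, with 6488 CPM there against 91.8 to 106.1 CPM in the other 5 libraries, and U2af1 was at 0.82 (SE 0.26). RNA helicases had 0 of 51 in either direction.

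Families of membrane and secreted proteins moved with WT replicate 3. Relative to the mean of the other WT libraries, its median level was higher by 1.192 on the log2 scale in the sodium, potassium and calcium pumps, 0.95 in neurexins, neuroligins and latrophilins, 0.84 in cadherins and protocadherins, 0.78 in glutamate receptors, 0.72 in axon guidance molecules and 0.47 in solute carriers. It was lower by contrast in histones (-0.77) and cytosolic ribosomal proteins (-0.48). With it, 1 of 23 glutamate receptors, 0 of 20 neurexins and relatives, 4 of 217 solute carriers and 0 of 12 pumps were higher. Without it, 4, 9, 27 and 4 were. The median of the pumps went from -0.22 to 0.40 on leaving it out, so no direction is given for these families.

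**Figure D4:**
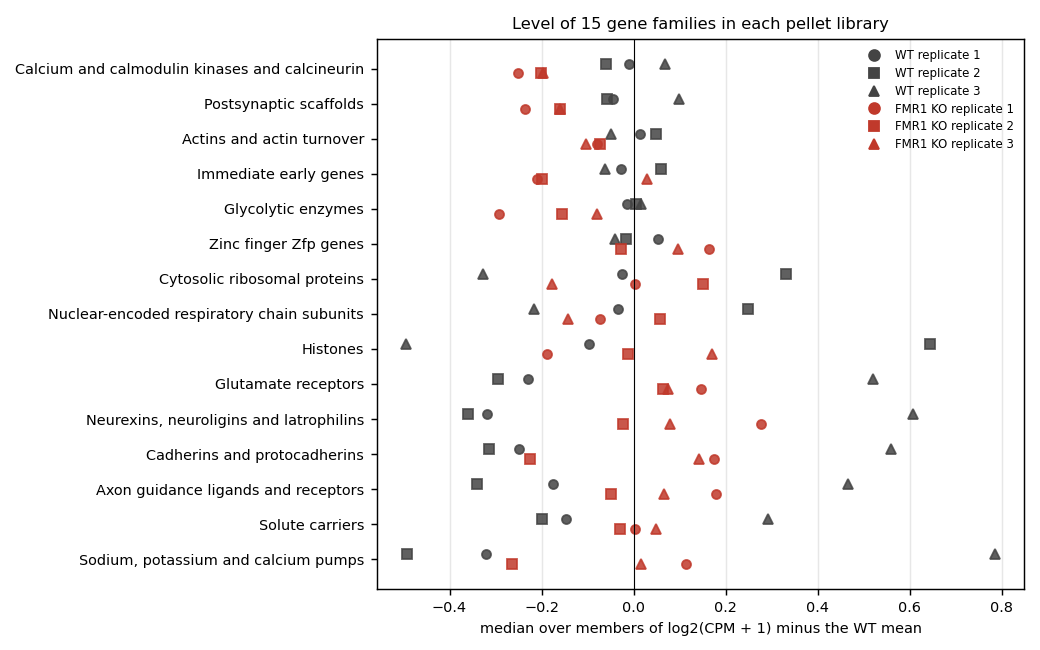
Median over the members of 15 families of log2(CPM + 1) minus the mean of the 3 WT libraries, for each pellet library (circles, squares and triangles are replicates 1, 2 and 3, grey WT and red FMR1 KO). The 3 FMR1 KO libraries lie below the WT libraries for calcium and calmodulin kinases (-0.25, -0.20 and -0.20) and postsynaptic scaffolds (-0.24, -0.16 and -0.16), while WT replicate 3 is far to the right for pumps, neurexins, cadherins and glutamate receptors.

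Single members of these families kept their difference with that library left out. Cacna1d, the L-type calcium channel Cav1.3, had 49.9, 15.0 and 57.0 CPM in WT and 173, 397.5 and 192 CPM in FMR1 KO (2.65, SE 0.58), and was at -0.91 in the low nuclease pellet and -0.33 in RNA. Pcsk1n, the prohormone convertase inhibitor proSAAS, had 16.5, 17.7 and 23.5 CPM in WT and 56.1, 119 and 90.2 CPM in FMR1 KO (2.202, SE 0.30, adjusted p = 0.308), against -0.52 and -0.20 in those 2 comparisons. In the low nuclease pellet whole lists were negative too, with medians of -0.39 for voltage-gated calcium channels and -0.44 for neuropeptides. FMR1 KO replicate 1 of that preparation was the lowest library, at -0.85 and -1.10 relative to the WT mean. Pcdh17, a protocadherin of axon bundling, had 1916, 979 and 579 CPM in WT and 370.2, 361 and 346 CPM in FMR1 KO (-1.69, SE 0.43). Each of the 3 kept an unadjusted p under 0.05 in all 6 fits without a library. Among 64 potassium channels 4 were higher and 3 lower, which became 5 and 0 without WT replicate 3, 4 and 0 without FMR1 KO replicate 1 and 1 and 1 without WT replicate 2, with the ERG channel gene Kcnh6 at 1.13 (SE 0.19, adjusted p = 0.581). Of 41 collagens and laminins 4 were higher and 0 lower, with 1 higher without WT replicate 1 or 2 and 8 without WT replicate 3, led by Col18a1 with 2.36 to 5.25 CPM in WT and 7.95 to 12.7 CPM in FMR1 KO (1.30, SE 0.33).

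Nuclear proteins other than the immediate early genes filled 5 lists. Histones had 1 of 61 lower and 45 of 61 negative, with a median of -0.11 that ran from -0.35 without WT replicate 3 to 0.30 with a library left out. Of 333 zinc finger genes named Zfp, 33 had all FMR1 KO libraries above WT and 6 all below, against 4.88% and 6.35% of all genes, and 100 of 333 were negative. At the unadjusted p, 9 were higher and 7 lower, and the median was 0.10. The counts of higher and lower ones turned to 3 and 6 without WT replicate 2, and were 17 and 4 without FMR1 KO replicate 2, 10 and 1 without WT replicate 1 and 6 and 3 without FMR1 KO replicate 1. Zfp36l1, which unlike most of the list binds AU-rich mRNA, had 26.3 to 37.8 CPM in WT and 42.7 to 51.7 CPM in FMR1 KO (0.63, SE 0.16). Zfp420 and Zfp418 were at 0.75 (SE 0.21) and 0.69 (SE 0.20). Zfp629 had 320.5, 187 and 140.7 CPM in WT and 58.4, 41.0 and 87.7 CPM in FMR1 KO (-1.79, SE 0.40). Chromatin remodelers and modifiers had 4 of 91 lower and 1 higher, but 2 lower and 4 higher without FMR1 KO replicate 1, with the SET domain gene Setd5 at -0.32 (SE 0.09). Over all genes that fit had 135 lower and 401 higher. Neurodevelopmental transcription factors had 2 of 79 lower, from 0 without FMR1 KO replicate 1 to 5 without FMR1 KO replicate 3, Mef2a (-0.31, SE 0.10) and Satb1 (-0.23, SE 0.08). Cell cycle genes had 1 of 48 higher, or 4 without WT replicate 2, the condensin subunit Smc4 (0.25, SE 0.08).

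Protein folding and turnover genes were near the background. HSP70, HSP90 and HSP60 chaperones had 0 of 18, CCT chaperonin subunits 0 of 7 and giant ubiquitin ligases 0 of 20 past the unadjusted p in either direction. Among 35 proteasome subunits 1 was higher, the ubiquitin receptor Psmd4, with 271, 147 and 125 CPM in WT and 463, 550.2 and 334 CPM in FMR1 KO (1.31, SE 0.34). Without WT replicate 3, 3 subunits were lower as well. Psmd4 was at 0.04 in the low nuclease pellet and at -0.07 in RNA. Of 50 Rab GTPases, 2 were lower, Rab3b (-0.25, SE 0.09) and Rab6a (-0.25, SE 0.09), and 1 was higher, Rab29, with 0.18 to 0.664 CPM in WT and 1.20 to 2.00 CPM in FMR1 KO. The balance turned to 8 higher and 1 lower without FMR1 KO replicate 3, and to 4 higher and 0 lower without FMR1 KO replicate 1. Over all genes it moved the same way, to 579 higher and 418 lower and to 401 higher and 135 lower in the same order. The 14-3-3 proteins had 0 of 6.

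Markers of cell types were set beside these families, since in bulk tissue fewer cells of a type and less RNA per cell cannot be told apart. Neuron markers were abundant, as the labelled tissue requires, summing to 6979 to 7864 CPM in WT and 7311 to 7501 CPM in FMR1 KO, and 0 of 13 passed the unadjusted p. Their median was -0.07, and -0.006 without FMR1 KO replicate 1. The median of hippocampal and cortical excitatory neuron markers was -0.12, and -0.06 without WT replicate 1 and -0.05 without FMR1 KO replicate 1 or 2. That of striatal markers was -0.16, and -0.003 without WT replicate 3, -0.28 without WT replicate 1 and -0.27 without WT replicate 2. Astrocyte and radial glia markers had 1 of 12 lower, Gfap, with 77.4, 91.4 and 116.3 CPM in WT and 58.4, 70.2 and 72.7 CPM in FMR1 KO (-0.50, SE 0.18), and RNA of Gfap was at -0.43. Oligodendrocyte lineage markers had 0 of 11 past the p but 10 of 11 negative, with a median of -0.26 that turned to 0.10 without WT replicate 3 and was -0.10 without FMR1 KO replicate 1, and summed levels of 362 to 431 CPM in WT and 314 to 379 CPM in FMR1 KO. Microglia markers had 0 of 9 past the p, with 5 of 9 negative and a median of -0.01 that took either sign with a library left out, and their summed level was 691 to 851 CPM in WT and 828 to 1833 CPM in FMR1 KO, where replicate 2 was the highest. Vessel markers had 1 of 8 higher (Kdr, 1.39, SE 0.51). Choroid plexus and ependyma markers had the highest median of all lists, 0.40, with 6 of 7 positive, 0 past the unadjusted p and summed levels of 46.4 to 62.7 CPM in WT and 51.6 to 81.8 CPM in FMR1 KO. Erythroid markers had the lowest, -0.83, with 5 of 5 negative and 0 past the unadjusted p. Their median was -1.31 with 3 of 5 lower without FMR1 KO replicate 3 and -0.37 without WT replicate 2, and in the low nuclease pellet it was -0.57, with 3 of 5 lower and every FMR1 KO library below every WT library. They summed to 7.84 to 17.3 CPM in WT and 4.86 to 9.85 CPM in FMR1 KO, and the 5 pituitary markers did not pass the filter, with at most 34 counts in a library. The part of cell composition in the lower kinases and scaffolds was not tested.

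The other preparations were examined with 1 limit on the RNA. In whole-brain RNA the Y-linked Ddx3y had 37.0, 35.7 and 36.9 CPM in WT and 0.0952, 0.137 and 0.0602 CPM in FMR1 KO, and Eif2s3y had 14.4 to 17.0 CPM in WT and 0 in every FMR1 KO library. The RNA libraries labelled FMR1 KO thus held almost no Y-linked reads, against the -/y in their labels, and sex and genotype cannot be told apart in that comparison. In the pellet, Ddx3y was present in both genotypes, at 41.3, 42.3 and 44.1 CPM in WT and 35.3, 44.3 and 38.8 CPM in FMR1 KO (-0.11, SE 0.11). Eif2s3y was at -0.05 (SE 0.11), Kdm5d at -0.43 (SE 0.15) and Uty at -0.43 (SE 0.13). Kdm5d and Uty passed the unadjusted p with no overlap between the groups, and the median over the 4 Y-linked genes was lower in every FMR1 KO library than in every WT library. Kdm5d was at -0.06 and Uty at -0.05 in the low nuclease pellet. The part of the sex make-up of the pools in the pellet results was not tested.

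By the adjusted test, 3 of 15245 genes (0.0197%) were called in the low nuclease pellet and 12 of 16313 (0.0736%) in RNA. Of the 367 genes lower in the standard pellet, 149 (40.6%) had a negative value in the low nuclease pellet, where 49.1% of all genes did, and 13 passed the unadjusted p there, where 1.97% of all genes were lower. In RNA 177 of 365 (48.5%) were negative, against 49.7% of all genes, and 19 passed, where 1.66% of all genes were lower and 0.938% higher. Of the 337 higher genes, 183 of 331 (55.3%) were positive in the low nuclease pellet, against 50.9% of all genes, with 30 passing where 2.36% of all genes were higher, and 168 of 330 (50.9%) in RNA, against 50.3%, with 10 passing.

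Only 14 entries of the gene table (0.106%) passed the unadjusted p with the same sign in the standard pellet, the low nuclease pellet and RNA, 9 lower and 5 higher. Besides Fmr1 and Wdfy1, the lower ones included Gabra2, the GABA-A receptor alpha2 subunit, with 12.7, 9.51 and 23.2 CPM in WT and 5.82, 5.47 and 4.36 CPM in FMR1 KO. Its log2 fold change was -1.53 (SE 0.35) in the standard pellet, -2.21 in the low nuclease pellet and -1.11 in RNA. Nnt, the mitochondrial transhydrogenase, had 18.0, 17.1 and 19.3 CPM in WT and 13.8, 13.7 and 13.8 CPM in FMR1 KO (-0.40, SE 0.10), with -0.76 and -0.44 in the others, and it fills 2 entries because 2 gene IDs share its reads. Gabra2 and Nnt are genes at which C57BL/6 substrains are known to differ, and the vendors named for these mice differ between the labels and the methods. Genotype and substrain cannot be told apart for these genes, and the part of substrain was not tested. Klhl32 was at -0.98 (SE 0.14, adjusted p = 0.308), Dynlt1b at -1.09 (SE 0.29), Igsf1 at -0.83 (SE 0.23) and Tns3, which links integrins to actin, at -0.41 (SE 0.12).

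On the higher side, Ide, the insulin-degrading enzyme, had 141, 139.8 and 158.6 CPM in WT and 234, 226.4 and 203.2 CPM in FMR1 KO (0.59, SE 0.11, adjusted p = 0.71), with 0.93 in the low nuclease pellet and 0.98 in RNA. Adss, an enzyme of adenine nucleotide synthesis, was at 0.43 (SE 0.10), the TATA-binding protein remodeler Btaf1 at 0.44 (SE 0.14) and Kcnh6 at 1.13 in the standard pellet, each of the same sign in the other comparisons. Gm15446 had 0.0473, 0 and 0 CPM in WT and 1.26, 1.37 and 0.985 CPM in FMR1 KO. Ide and Btaf1 both lie on chromosome 19. Of these 14 entries, 13 kept an unadjusted p under 0.05 in all 6 fits that left out a pellet library, and Btaf1 kept it in 4.

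Coding length was examined because FMRP is known for long mRNAs. In 4 groups of equal size from the shortest to the longest coding sequence, the median log2 fold change was -0.008, -0.004, 0.008 and -0.010, so no group moved as a whole. In the group with the longest sequences, of at least 2280 bases, 121 of 3291 genes (3.68%) were lower and 100 (3.04%) higher. Single libraries did differ by length, since that group lay at 0.10 in WT replicate 3 and at -0.11 in WT replicate 2 and -0.10 in FMR1 KO replicate 2, relative to the WT mean.

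The genotype difference itself was compared between the standard and the low nuclease pellet, over all 12 pellet libraries, and 2 of 15019 genes (0.0133%) passed an adjusted p of 0.05. Ppil1, a spliceosomal peptidyl-prolyl isomerase (chromosome 17, 29250803 to 29264186), had 13.0, 12.8 and 9.37 CPM in WT and 135.8, 74.3 and 84.0 CPM in FMR1 KO in the standard pellet. In the low nuclease pellet it had 12.4 to 15.1 CPM in WT and 10.9 to 14.9 CPM in FMR1 KO, and its RNA was at 0.09 on the log2 scale. The difference of the 2 log2 fold changes was 3.11 (SE 0.33, adjusted p = 0.0211 by edgeR). Ankrd6, a regulator of Wnt signalling (chromosome 4, 32804035 to 32950841), showed the reverse arrangement, with 7.19 to 7.48 CPM in WT and 6.00 to 8.20 CPM in FMR1 KO in the standard pellet. In the low nuclease pellet it had 207.5, 257.9 and 167.3 CPM in WT and 15.7, 15.7 and 15.4 CPM in FMR1 KO, and the difference was 3.74 (SE 0.22, adjusted p = 0.00013 by edgeR). Each difference thus sat in a single preparation, since the other preparation was level.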

How the data were processed

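RPFs were measured in the gradient pellet of WT and FMR1 KO mouse brain at postnatal day 5. The deposited values are raw counts per gene, which the authors made with cutadapt 2.10, Bowtie2 2.3.5, STAR 2.7.8a on GRCm38, Picard, SAMtools 1.19.2 and featureCounts 2.2.0, by the submitters' processing notes and the methods. Whether strand was used in counting is not given in the sources used here, so reads of overlapping or antisense genes cannot be told apart.

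Samples were grouped by their GEO labels, with 3 libraries per genotype and preparation. Of 16614 genes, 16568 were protein-coding in GENCODE M21, matched by gene ID. Cdk8 was dropped, genes were filtered with filterByExpr, libraries were scaled by TMM, and the genotypes were compared with edgeR 4.0.16 (R 4.3.3) by the quasi-likelihood test, two-sided, with Benjamini-Hochberg adjustment over all genes tested. Levels of lists used log2(CPM + 1). The low nuclease pellet and RNA were fitted in the same way, and the difference of differences as an interaction term. The test was checked on simulated data. Library totals are given in the report, and since barcodes mark samples and not molecules, reads are not independent molecules.

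The members and lists were chosen with earlier results of these data known. Named genes were those past the adjusted test, the 12 largest differences in each direction with an unadjusted p under 0.05, no overlap and a mean of at least 5 CPM, the 2 most abundant and the 2 with the smallest p of each list, the FMRP family and partners, and the Y-linked genes. The other members named with their values, the genes of the same sign in 3 comparisons, Ppil1 and Ankrd6 were chosen after their values were seen. Replicate numbers did not pair the libraries. Alternatives were DESeq2 1.42.0, voom in limma 3.58.1, other scalings and filters, Cdk8 kept, and each library left out. Some named members are not reported here, though they stay in the fits and counts of their lists.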

Additional observations from a re-analysis of the deposited data

Results flagged for a closer look

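The genotype difference of Ppil1 in the standard pellet exceeded that in the low nuclease pellet by 3.106 on the log2 scale, and that of Ankrd6 by 3.738, each by a test of the difference itself (edgeR's interaction term, adjusted p = 0.0211 and 0.00013). Ppil1 was at 3.06 in the standard pellet and -0.02 in the low nuclease pellet. Ankrd6 was at -0.04 and -3.76 in the same order.

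The median of the calcium and calmodulin kinases and calcineurin was -0.191 in the standard pellet, where every FMR1 KO library lay below every WT library, while in the low nuclease pellet every FMR1 KO library lay above every WT library. The synaptic vesicle cycle genes had the same arrangement, with a median of -0.082 in the standard pellet. Neuron markers, active zone scaffolds and 14-3-3 proteins, with medians of -0.071, -0.071 and -0.106 in the standard pellet, where their groups overlapped, also had library medians above WT in every FMR1 KO library of the low nuclease pellet, by a margin near 0 for the neuron markers. Choroid plexus and ependyma markers, which are not neuronal, also did, with a median of 0.403 in the standard pellet, where their groups overlapped. The part of neuron content in the pattern was not tested. For the kinases and the vesicle cycle genes the difference between preparations was not tested.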

How the results depend on the processing

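The number of genes past an adjusted p of 0.05 was 2 in the main analysis, 66 with DESeq2, 13 with scaling by library size alone, 12 with all 12 pellet libraries in 1 fit and 6 with voom, and it ran from 0 to 8 when 1 library was left out. At an unadjusted p of 0.05, 367 genes were lower, against 148 with library size alone, 619 with all 12 libraries, 770 with voom and 135 to 418 with 1 library left out. In the other direction 337 were higher, against 669 with all 12 libraries, 729 with voom and 219 to 579 with 1 library left out. Scaling by library size alone gave 400 higher and 148 lower genes, so the balance of directions depends on the scaling, although it moved the median of all genes to only -0.019. The low nuclease count of 3 ran from 2 to 11 and the interaction count of 2 from 4 to 12 with 1 library left out. The cause was not tested.

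Replicate numbers were shared between genotypes, but same-numbered libraries did not deviate together (r of -0.044, -0.0521 and -0.029), and with a replicate block 0 genes were called in the standard pellet, with 312 lower and 261 higher at the unadjusted p, and 0 in the low nuclease pellet. With 1 library left out, the log2 fold change of Hnrnpll ran from -0.088 (without FMR1 KO replicate 1) to 5.049 and that of Zfp184 from -4.695 to 0.046 (without WT replicate 1), so both reversed. Of 66 list medians, 18 moved by more than the spread between libraries without WT replicate 3, 8 without WT replicate 2, 7 with voom and 5 without FMR1 KO replicate 2, and 0 under the other scalings and filters. The sign of the median differed from the main analysis in 8 of the 66 lists with library size alone (among them cadherins, potassium channels and granule RNA-binding proteins) and in 14 with voom (among them cadherins, pumps, and oligodendrocyte and microglia markers), and in 0 with DESeq2, its size factors or Cdk8 kept. The counts of list members with a library left out were chosen after seeing the data. With 3 libraries a side, differences of 2-fold or less were mostly not detectable in a single gene.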
